A study of Mus musculus with 4 samples.

Results

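Aminoacyl-tRNA synthetases join each amino acid to its transfer RNA, the step that feeds amino acids into protein synthesis. Mammalian cells use one set of these enzymes in the cytosol and a second set, mostly encoded by separate nuclear genes, for the translation system inside mitochondria. Several cytosolic enzymes sit together in a multisynthetase complex, and many cytosolic synthetase genes are known targets of ATF4, the transcription factor that acts when amino acids are short or the endoplasmic reticulum is stressed. The synthetase genes were taken from the array annotation by symbol: one capital letter followed by "ars", with or without 1 or 2, plus Farsa, Farsb and Eprs. This gave 32 of the 17711 genes named on the array, with 60 probes. Of these, 18 were counted as cytosolic and 14, whose symbols end in 2, as mitochondrial. Each gene was represented by its brightest probe.

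The arrays measured total RNA from tumours of B16-F10-luc-G5 cells, a luciferase-marked line of the mouse B16 melanoma, dissected 10 days after subcutaneous injection into the abdominal area. There were 2 tumours from wild-type mice (replicates 2 and 3) and 2 from VAP-1 -/- mice (replicates 1 and 2). VAP-1, encoded by Aoc3, is a cell surface amine oxidase of vessels and fat. Both groups received the same cells, so the missing gene is that of the host. Sex, age and strain of the mice are not stated in the labels. Each array shows tumour and host cells together. In such bulk samples fewer cells of a type and less RNA per cell cannot be told apart.

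Aoc3 read 8.01 and 7.18 in wild type (replicates 2 and 3, the order used for all values) against 7.29 and 7.16 in the knockout (replicates 1 and 2); where its probe lies relative to the deleted part is not stated in the labels, so it does not check the genotypes. All 8 measured melanocyte markers lay above the filter on dim probes, and the log2 of their summed signal was 16.56 and 16.53 in wild type against 16.75 and 16.68 in the knockout. The knockout mean was higher for 6 of the 8 and lower for 2. Sox10 differed by 0.84 (limma unadjusted p 0.0113) and Tyr by -0.50 (limma unadjusted p 0.0849). The arrays also differed in markers of host tissue; over all probes tested, 46.2% had a higher and 53.8% a lower knockout mean. Keratinocyte markers had a higher knockout mean for 7 of 8 genes, with a log2 summed signal of 12.78 and 12.60 in wild type against 14.31 in knockout replicate 1 and 12.96 in knockout replicate 2. Skeletal muscle markers had a higher mean for 6 of 8 genes (11.80 and 11.68 against 12.75 and 12.06). Red blood cell markers had a lower mean for 5 of 5 genes (16.12 and 16.00 against 15.10 and 14.29), and granulocyte markers for 5 of 6 (11.18 and 11.78 against 9.49 and 9.59). Endothelial markers had a lower mean for 4 of 5 genes (10.60 and 10.29 against 9.98 and 10.10), with Cldn5 at -0.69 and Kdr at -0.57, both at an unadjusted p under 0.05 in limma. Macrophage markers had a lower mean for 3 of 5 genes, 2 of them under that threshold (11.03 and 10.99 against 10.85 and 11.11). Fibroblast markers had a higher mean for 4 of 5 (11.90 and 11.30 against 12.78 and 11.55). No marker gene passed after adjustment, and the part of these tissue differences in the synthetase values was not tested.

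None of the 32 synthetase genes was called different between the genotypes after adjustment over the whole array. The limma fit, on log2 signal with Benjamini-Hochberg adjustment over 27979 probes, called 0 probes at an adjusted p under 0.05 (0% of those tested), and its smallest adjusted p over all probes was 0.102. By limma's unadjusted p, 4577 probes lay under 0.05, and an intensity-trended robust prior called 4 probes after adjustment. Of the synthetase genes, 30 (17 cytosolic and 13 mitochondrial) had a mean above the filter on dim probes and were tested. At an unadjusted p under 0.05, 3 of the 30 were higher in the knockout (10%) and 0 were lower. All 3 were mitochondrial (23.1% of the 13 tested), and 0 of the 17 cytosolic genes passed. Among all probes tested the share was 16.4%, with 9.27% higher and 7.09% lower. The share of all synthetase genes was thus below that of the array for both directions together. It was near that of the array for the higher direction alone. The split of all such probes depends on scaling: 56.7% were higher in the knockout as reported, 97.8% after median scaling and 49.2% after scaling by the 75th percentile. These scalings moved the median of all probes tested from -0.02 to 0.08 and -0.14 on the log2 scale. Before normalization the 75th percentile of intensity was 96.99 and 88.28 in wild type, against 112.86 and 126.75 in the knockout. The median intensity was 63.34 and 55.31 against 64.81 and 68.27. Both measures were higher on both knockout arrays, and the part of this in the synthetase values was not tested.

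**Figure D1:**
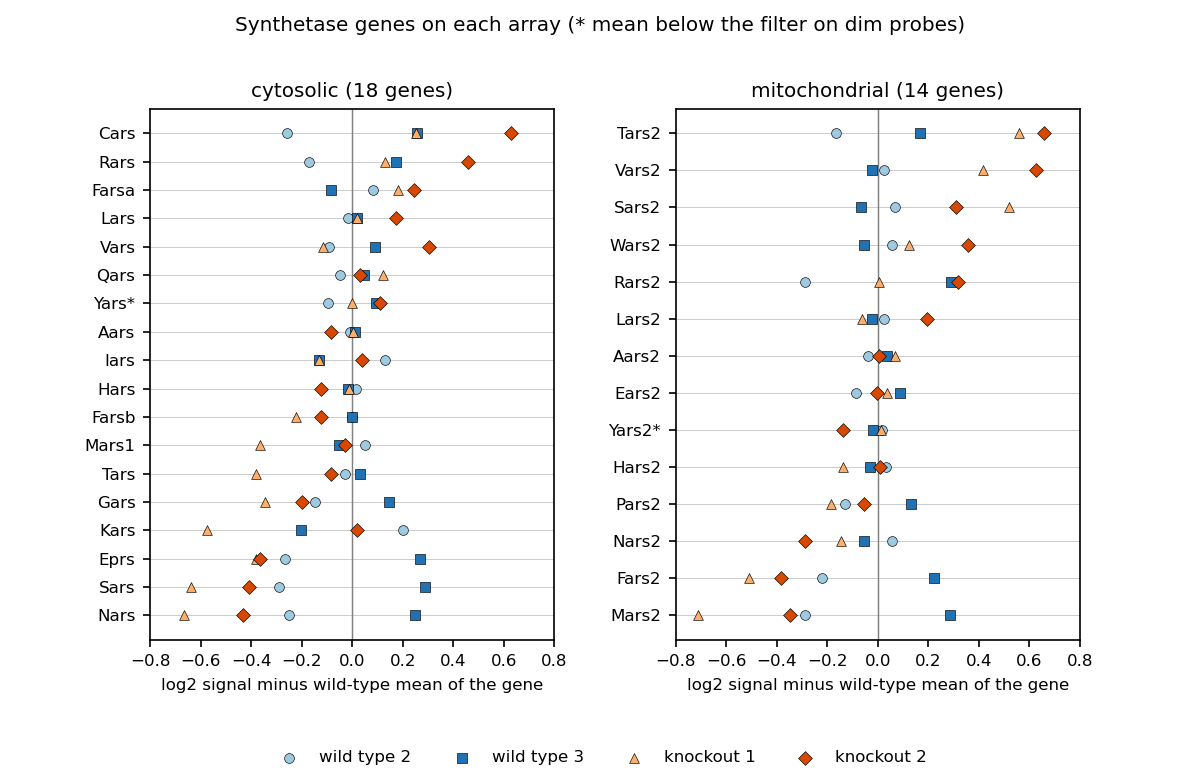
Log2 signal of each synthetase gene's brightest probe on each array, minus that gene's mean over the wild-type arrays, for 18 cytosolic genes (left) and 14 mitochondrial genes (right); 1 point is 1 tumour. Tars2, Vars2 and Sars2 have both knockout points to the right of both wild-type points, while at Nars, Sars, Eprs, Fars2 and Mars2 wild-type replicate 3 stands to the right of the other arrays.

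The 3 genes past the unadjusted threshold encode the mitochondrial enzymes for threonine, valine and serine. Tars2, which charges mitochondrial threonine transfer RNA, gave log2 signals of 8.03 and 8.37 in wild type and 8.76 and 8.86 in the knockout. Both knockout tumours lay above both wild-type tumours, by a mean of 0.61 ± 0.15 (SE of the limma fit), or 1.52-fold, with a 95% interval from 0.20 to 1.01. The limma adjusted p was 0.179 and the unadjusted p 0.0127.

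Vars2, the mitochondrial valine enzyme, read 8.93 and 8.88 in wild type against 9.32 and 9.53 in the knockout. The groups did not overlap, and the difference was 0.52 ± 0.12 (SE), or 1.43-fold, with an interval from 0.20 to 0.84 and a limma adjusted p of 0.166 (unadjusted 0.0098). A second Vars2 probe read 7.64 and 7.40 against 8.30 and 7.92 and differed by 0.59 ± 0.18, in the same direction. Sars2, the mitochondrial serine enzyme, read 7.17 and 7.04 against 7.63 and 7.41. Its difference was 0.41 ± 0.13, or 1.33-fold, with a limma adjusted p of 0.237 (unadjusted 0.0272).

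The direction of these 3 genes was the same in each of 11 alternatives, but the unadjusted call was not. Tars2 ranged from 0.44 (without wild-type replicate 2) to 1.02 (median scaling), with unadjusted p from 0.0021 to 0.0786. Vars2 ranged from 0.42 to 0.92 (0.00495 to 0.0688) and Sars2 from 0.31 to 0.74 (0.00178 to 0.154). Without knockout replicate 1, the array with the most keratinocyte and muscle signal, Vars2 alone stayed under 0.05, at 0.62 (unadjusted p 0.0234). In that fit Tars2 stood at 0.66 (0.0527) and Sars2 at 0.31 (0.154). Without knockout replicate 2 the 1 gene under 0.05 was Sars2, at 0.52 (0.0464). Adjusted p over the alternatives ran from 0.0556 to 0.788 for Tars2, from 0.104 to 0.776 for Vars2 and from 0.0808 to 0.879 for Sars2.

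The stretch of 250 bases before the annotated start of each of these genes is shown because they are the members of smallest p. The sequences are from RefSeq, build GRCm38.p6, written 5′ to 3′ along the gene, and no base is marked with a capital.
Tars2, chr3:95754978-95755227, minus strand: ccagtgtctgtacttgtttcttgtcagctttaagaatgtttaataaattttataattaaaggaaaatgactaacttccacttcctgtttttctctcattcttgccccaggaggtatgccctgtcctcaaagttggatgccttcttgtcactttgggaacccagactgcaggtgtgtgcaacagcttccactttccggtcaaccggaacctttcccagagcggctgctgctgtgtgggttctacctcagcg
Vars2, chr17:35667593-35667842, minus strand: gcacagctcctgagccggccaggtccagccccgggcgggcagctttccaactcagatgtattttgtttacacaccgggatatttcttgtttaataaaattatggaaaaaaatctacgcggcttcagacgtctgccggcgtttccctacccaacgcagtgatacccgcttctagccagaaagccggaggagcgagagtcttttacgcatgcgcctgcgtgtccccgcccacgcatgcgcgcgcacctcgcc
Sars2, chr7:28741718-28741967, plus strand: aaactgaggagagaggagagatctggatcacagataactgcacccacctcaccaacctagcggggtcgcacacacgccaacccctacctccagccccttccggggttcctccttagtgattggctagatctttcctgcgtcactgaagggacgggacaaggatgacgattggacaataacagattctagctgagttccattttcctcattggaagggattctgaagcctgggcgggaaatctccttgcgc

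The other 10 tested mitochondrial genes did not pass at the unadjusted threshold, and their mean differences lay on both sides of 0. Fars2, the mitochondrial phenylalanine enzyme, read 10.37 and 10.82 in wild type against 10.09 and 10.21 in the knockout, a difference of -0.45 ± 0.18 (SE). Mars2, the methionine enzyme, read 6.92 and 7.49 against 6.49 and 6.86, a difference of -0.53 ± 0.25, and its second probe differed by -0.29 ± 0.20. For both genes the groups did not overlap and wild-type replicate 3 was the highest array. Without that array the differences were -0.22 for Fars2 and -0.24 for Mars2, and without wild-type replicate 2 they were -0.67 and -0.81.

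Nars2, for asparagine, was also lower on both knockout arrays (6.59 and 6.47 against 6.38 and 6.24), by -0.22 ± 0.11, and its second probe differed by -0.01 ± 0.15. Wars2, for tryptophan, read 6.68 and 6.57 against 6.75 and 6.98, a difference of 0.24 ± 0.13. A dimmer Wars2 probe read 8.19 in wild-type replicate 2 and 6.05, 6.15 and 6.03 on the other arrays, so it was high in 1 tumour. Rars2 for arginine (0.16 ± 0.24), Lars2 for leucine (0.06 ± 0.13) and Aars2 for alanine (0.04 ± 0.10) had overlapping groups. So did Ears2 for glutamate (0.02 ± 0.11), Hars2 for histidine (-0.07 ± 0.11) and Pars2 for proline (-0.12 ± 0.14). Dimmer second probes of Ears2 (-0.09 ± 0.10) and Pars2 (0.13 ± 0.11) had the opposite sign, and their groups did not overlap. That of Rars2 had the same sign (0.21 ± 0.14), with overlapping groups. Yars2, for tyrosine, lay below the filter at 5.87, 5.83, 5.87 and 5.71 and was not tested.

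Among the 13 tested mitochondrial genes, 8 had a higher and 5 a lower knockout mean, and groups did not overlap for 4 higher and 3 lower genes. Over all 30 tested synthetase genes the groups did not overlap for 15 (50%), 6 higher and 9 lower. For all probes tested that share was 49.2%, made of 23.6% higher and 25.6% lower, so this count too was close to that of the array. The median mitochondrial difference was 0.04, over a range from -0.53 to 0.61, and with Yars2 included it was 0.03. It was -0.04 without wild-type replicate 2, and 0.44 and 0.22 under median and 75th percentile scaling.

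**Figure D2:**
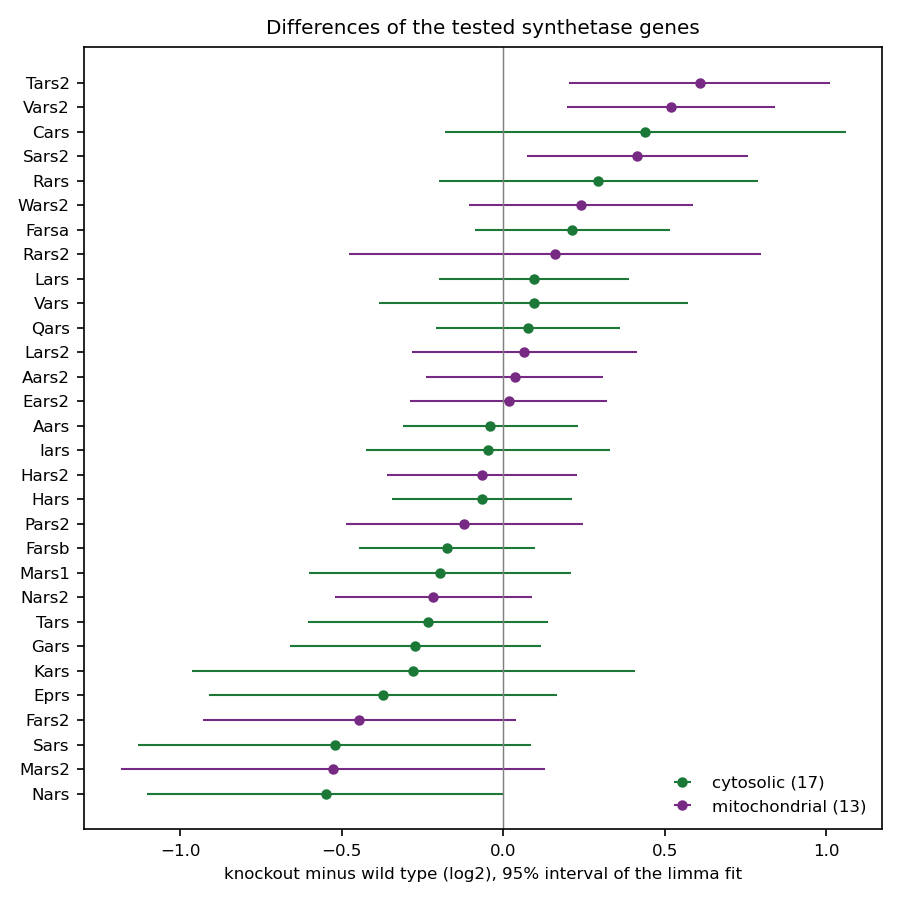
Difference of knockout from wild type (log2) for the 30 tested synthetase genes, each with the 95% interval of the limma fit, 2 arrays per group; green marks cytosolic and purple mitochondrial genes. The intervals of Tars2, Vars2 and Sars2 lie above 0, and the other 27 include it.

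No cytosolic synthetase gene passed at the unadjusted threshold: 0 of 17 were higher and 0 lower. Of the 17, 11 had a lower knockout mean and 6 a higher one, and groups did not overlap for 6 lower and 2 higher genes. Those 8 are 47.1% of the 17, beside 49.2% of all probes tested. The median difference was -0.07, from -0.55 to 0.44. That median was 0.01 under median scaling and -0.22 under 75th percentile scaling, so its sign depends on the scaling.

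Nars and Sars, the enzymes for asparagine and serine, had the most negative cytosolic differences. Nars read 10.59 and 11.09 in wild type against 10.17 and 10.41 in the knockout. Its difference was -0.55 ± 0.21 (SE), with a 95% interval from -1.10 to 0.0023, a limma adjusted p of 0.307 and an unadjusted p of 0.0506. Sars read 10.11 and 10.69 against 9.76 and 9.99, a difference of -0.52 ± 0.23 (adjusted p 0.369 in limma). The groups did not overlap for either gene, but wild-type replicate 3 stood well above wild-type replicate 2. Without wild-type replicate 3 the differences were -0.30 for Nars and -0.23 for Sars, and without wild-type replicate 2 they were -0.80 and -0.81. Of the 2 other Sars probes, 1 was kept and differed by -0.17 ± 0.26.

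Gars encodes both the cytosolic and the mitochondrial glycine enzyme. It read 13.33 and 13.62 against 13.13 and 13.28, a difference of -0.27 ± 0.15, and its second probe, near the floor, differed by 0.09 ± 0.11. Without wild-type replicate 3 the Gars difference was -0.13. Tars, for threonine, read 7.68 and 7.74 against 7.33 and 7.62. Its difference was -0.23 ± 0.14, it was 0.16 under median scaling, and its second probe differed by 0.01 ± 0.10.

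The phenylalanine enzyme is built from 2 kinds of subunit, encoded by Farsa and Farsb. Farsa read 9.37 and 9.21 against 9.47 and 9.53 (0.21 ± 0.11), while Farsb read 11.30 and 11.30 against 11.08 and 11.18 (-0.17 ± 0.10). Neither pair of groups overlapped, but neither gene passed even the unadjusted threshold (limma p 0.125 and 0.158), and both intervals include 0 (-0.09 to 0.52 for Farsa and -0.45 to 0.10 for Farsb). The second Farsa probe, dimmer, read 7.18 and 6.54 against 7.69 and 7.41, a difference of 0.70 ± 0.25 (limma unadjusted p 0.0446, adjusted 0.292).

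Cars, for cysteine, read 8.48 and 8.997 against 8.99 and 9.37, so the groups overlapped in spite of a mean difference of 0.44 ± 0.23, and a second probe differed by 0.28 ± 0.23. Without wild-type replicate 2 the Cars difference was 0.18. Aars, for alanine, was level across the arrays at 12.09, 12.11, 12.10 and 12.01, with an interval from -0.31 to 0.23. Vars, for valine, differed by 0.09 ± 0.18, and Hars, for histidine, by -0.07 ± 0.10 close to the floor. Yars, for tyrosine, read 5.91, 6.10, 6.004 and 6.11, below the filter, and was not tested.

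Of the enzymes of the multisynthetase complex, 7 genes were members and all 7 were tested; the aspartate enzyme of the complex was not analysed here. No complex gene passed at the unadjusted threshold, 3 had a higher and 4 a lower knockout mean, and the median was -0.05. Eprs, the joint glutamate and proline enzyme, read 7.65 and 8.19 against 7.54 and 7.56 (-0.37 ± 0.20). Its groups did not overlap, with the knockout lower, yet the difference was -0.11 without wild-type replicate 3 and 0.01 under median scaling. Lars, for leucine, read 11.4745 and 11.5101 against 11.5116 and 11.6643, a difference of 0.10 ± 0.11. Its groups were apart by 0.0015 on the log2 scale, far less than the spread within either group, and the difference was -0.04 under 75th percentile scaling.

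The groups overlapped for the remaining 5 complex genes. Kars, the lysine enzyme of both compartments, read 10.87 and 10.46 against 10.09 and 10.68, and its second probe had a difference of the opposite sign (0.25 ± 0.11, against -0.28 ± 0.26 for the brighter one). Mars1 for methionine differed by -0.20 ± 0.15 and Iars for isoleucine by -0.05 ± 0.14. Qars for glutamine differed by 0.08 ± 0.11, with its 2 other kept probes at 0.12 and -0.03, and Rars for arginine by 0.29 ± 0.19, which was 0.12 without wild-type replicate 2. The 10 tested cytosolic genes outside the complex had a median of -0.12, with 3 higher and 7 lower means.

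Cytosolic and mitochondrial enzymes for the same amino acid could be set side by side in 13 combinations in which both genes were tested. The mitochondrial gene had the more positive difference in 8 and the more negative in 5, and in 5 the signs were opposite. These are not 13 separate amino acids, since Eprs and Fars2 each enter with both of their partners. The 8 include histidine, where the gap was 0.001 and the arrays of the groups overlapped. The opposite signs include alanine, where the differences were only -0.04 and 0.035. The gap was widest for serine, where Sars2 minus Sars moved by 0.94 between the genotypes. On that log2 ratio, centred on the wild-type mean, the arrays stood at 0.36 and -0.36 in wild type and at 1.16 and 0.72 in the knockout. This centring makes the wild-type values of each ratio mirror each other. For threonine, Tars2 minus Tars moved by 0.84, from -0.14 and 0.14 to 0.94 and 0.74, and for valine, Vars2 minus Vars by 0.43, from 0.12 and -0.12 to 0.53 and 0.32. For phenylalanine the sign was the opposite: Fars2 minus Farsa moved by -0.66 and Fars2 minus Farsb by -0.27.

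The cytosolic median minus the mitochondrial median, with each gene centred on its wild-type mean, was 0.01 and -0.01 on the wild-type arrays and -0.13 and -0.03 on the knockout arrays. Because of the centring, the wild-type values mirror each other by construction. The shift of -0.08 was of the order of the spread between arrays of a group (SD 0.051). It had the same sign, from -0.29 to -0.03, in every alternative tried. An exact two-sided permutation test of 2 arrays against 2 cannot give a p below 0.333, so none was computed.

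**Figure D3:**
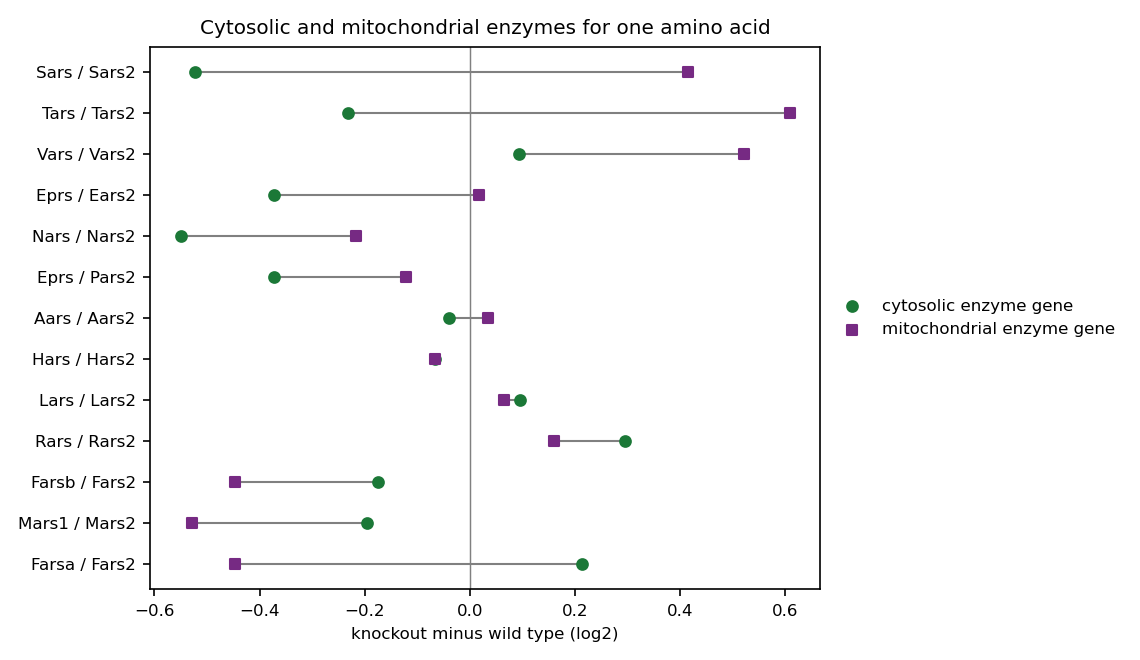
Knockout minus wild type (log2) for the cytosolic gene (green circle) and the mitochondrial gene (purple square) of the same amino acid, in 13 combinations; Fars2 and Eprs each appear with both of their partners. The longest lines are those of Sars and Sars2 (0.94) and of Tars and Tars2 (0.84), with the mitochondrial gene to the right, while the Farsa and Fars2 line (-0.66) runs the other way.

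The array with the most extreme value was not the same for all members. Knockout replicate 1 was the lowest array for 15 of the 30 tested genes (50%, against 27.7% of all probes tested), 10 of them cytosolic. It was the highest for 3 (10%, against 23.5% of all probes tested). Wild-type replicate 3 and knockout replicate 2 were each the highest for 10 (33.3%). Among all probes tested those shares were 32.1% for wild-type replicate 3 and 18.8% for knockout replicate 2.

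For 7 of the 30 genes the arrays fell in the order wild-type replicate 3, wild-type replicate 2, knockout replicate 2, knockout replicate 1 from high to low, which held for 9.15% of all probes tested. These were Nars, Sars, Gars, Eprs, Tars, Fars2 and Mars2, and this order was picked after their values were seen. Without wild-type replicate 2 alone, 9 synthetase genes lay under an unadjusted p of 0.05, with 3 higher and 6 lower. That was 30% of the members, beside 24.9% of all probes tested in the same fit (12.3% higher and 12.7% lower), in which 1669 probes passed after adjustment. The wild-type side then rests on replicate 3 and the spread on the knockout pair. Leaving out 1 array moved the difference by over 1.5 times, or changed its sign, for 25 of the 30 genes. The 5 for which no array did so were Tars2, Vars2, Sars2, Farsb and Nars2, of which Nars2 lies near the floor (6.59, 6.47, 6.38 and 6.24).

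Genes of the amino acid stress response, which acts alongside cytosolic synthetases when amino acids run short, were measured on the same arrays. The list holds genes that ATF4 controls, but also Atf4 itself and genes for kinases of the initiation factor eIF2. It is therefore not a readout of ATF4 targets alone. Of 29 listed genes, 25 were tested and 0 were called at an adjusted p under 0.05. At an unadjusted p under 0.05, 3 were lower and 1 higher, beside 7.09% and 9.27% of all probes tested, and the median difference was -0.17 against -0.02 for all probes. The knockout mean was lower for 15 and higher for 10. The 10 include the eIF2 kinase genes Eif2ak1 (0.20), Eif2ak2 (0.64), Eif2ak3 (0.06) and Eif2ak4 (0.06).

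Asns, asparagine synthetase, read 10.18 and 10.60 in wild type against 8.96 and 9.49 in the knockout, a difference of -1.17 ± 0.24 (SE, limma adjusted p 0.147). Trib3, a feedback inhibitor of the pathway, read 9.34 and 10.62 against 8.06 and 8.99 (-1.46 ± 0.54, adjusted p 0.299 in limma). Phgdh, the first enzyme of serine synthesis, read 7.36 and 8.25 against 6.67 and 7.05 (-0.94 ± 0.34, adjusted p 0.287 in limma). In each, the groups did not overlap, with wild-type replicate 3 highest and knockout replicate 1 lowest, as for Nars and Sars.

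The same order of arrays held for 6 of the 25 (24%, beside 9.15% of all probes tested): Asns, Trib3, Phgdh, Psat1, Mthfd2 and Atf4. In the other gene lists described below the shares rest on few genes. They were 2 of 8 synthetase partners (25%) and 3 of 16 amino acid transporters (18.8%). For other charging and editing genes the order held for 2 of 12 (16.7%), and for interferon-gamma response genes for 1 of 8 (12.5%). With so few genes, and an order picked after values were seen, these shares do not set the lists apart from all probes. The other 19 stress response genes did not have the order. Among them the stress transcription factor genes Ddit3 (0.40 ± 0.38), Nupr1 (0.42 ± 0.54) and Cebpb (0.44 ± 0.40), named after their values were seen, had overlapping groups and a higher knockout mean. Cebpg also had overlapping groups (0.14 ± 0.19). Atf3, another such gene, went the other way and was lower on both knockout arrays (-0.23 ± 0.15). Atf4 itself read 10.30 and 10.50 against 10.25 and 10.28, a difference of -0.14 ± 0.12. The gene higher at an unadjusted p under 0.05 was Eif2ak2, an interferon-induced kinase that phosphorylates the initiation factor eIF2 (9.44 and 9.37 against 10.16 and 9.93, 0.64 ± 0.13).

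**Figure D4:**
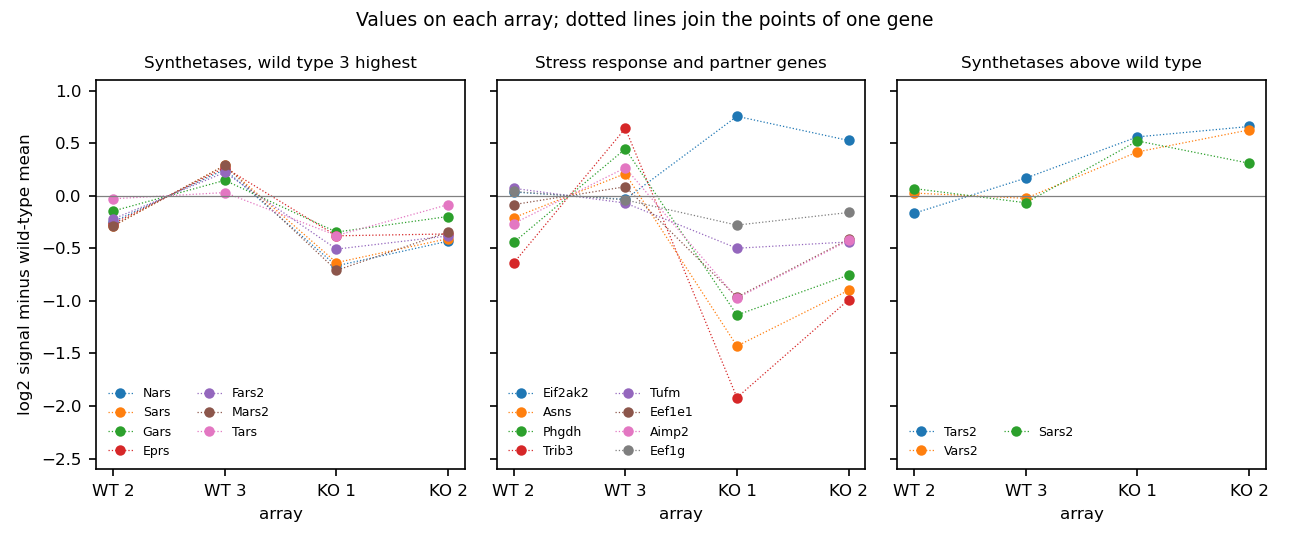
Log2 signal on each array minus the wild-type mean of the gene, for the 7 synthetase genes picked for sharing an order of arrays (left), the 4 stress response and 4 partner genes of smallest p (middle) and Tars2, Vars2 and Sars2, picked for their p (right). In the middle panel Asns, Trib3, Phgdh, Aimp2 and Eef1e1 have the order of the left panel, Tufm and Eef1g are highest in wild-type replicate 2, and Eif2ak2 is higher on both knockout arrays.

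ATF4 and its partners bind an element with the core TGATGNAA in many target genes. This core, on either strand, was searched from 250 bases before to 50 bases after the start in the RefSeq promoter table (build GRCm38.p6), in which 24 of the 32 synthetase genes were found. It occurred in 5 of 12 cytosolic genes (41.7%) and 0 of 12 mitochondrial genes, beside 4.51% of 27025 genes and 3.97% of 32851 promoters in the table. The longer form TGATGNAAN, which holds the core, occurred in 3.95% of promoters. A match is a description of letters and does not show binding.

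A match in each gene is shown in a window of 30 bases, 5′ to 3′ along the gene, with the core or its reverse complement in capitals. Positions give its first base, with 1 at the annotated start. In Aars it begins at 10, in Gars at -30, in Iars at 8, in Tars at -15 and in Yars at 4.
Aars, chr8:111033840-111033869, plus strand: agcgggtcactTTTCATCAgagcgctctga
Gars, chr6:55037960-55037989, plus strand: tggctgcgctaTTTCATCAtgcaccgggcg
Iars, chr13:49682126-49682155, plus strand: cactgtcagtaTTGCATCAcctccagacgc
Tars, chr15:11399655-11399684, minus strand: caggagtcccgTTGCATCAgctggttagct
Yars, chr4:129189895-129189924, plus strand: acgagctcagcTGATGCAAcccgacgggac

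No gene with a match passed at the unadjusted threshold. Gars and Tars had both knockout arrays below wild type (-0.27 and -0.23), Aars and Iars had overlapping groups (-0.04 and -0.05), and Yars was below the filter. Of the other cytosolic genes with both knockout arrays below wild type, Sars, Eprs and Farsb had no match in this window, and Nars was not among the genes found in the table.

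Of 8 tested genes for proteins that work with the synthetases, 0 passed after adjustment. Tufm and Eef1e1, 2 of the 8, were lower at an unadjusted p under 0.05, beside 7.09% of all probes tested. The knockout mean was lower for 7 of the 8, beside 53.8% of all probes, and the median was -0.18 against -0.02. Aimp2 and Eef1e1 encode scaffold proteins of the multisynthetase complex. Eef1e1 read 8.71 and 8.88 against 7.83 and 8.38 (-0.69 ± 0.22, limma adjusted p 0.24), and Aimp2 read 9.03 and 9.56 against 8.32 and 8.87 (-0.70 ± 0.27, adjusted p 0.32 in limma). Both were lower on both knockout arrays, as were 25.6% of all probes tested, but Aimp2 missed the unadjusted threshold (limma p 0.0557). Aimp1, of the same list, had overlapping groups (-0.14 ± 0.18).

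Tufm, the mitochondrial elongation factor that carries charged transfer RNA to the ribosome, read 11.54 and 11.40 against 10.97 and 11.03 (-0.47 ± 0.11, adjusted p 0.166 in limma). Eef1g, a subunit of the exchange factor complex of cytosolic elongation, differed by -0.22 ± 0.11 and was also lower on both knockout arrays.

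Of 12 tested genes for other charging and editing steps, 1 was higher and 2 were lower at an unadjusted p under 0.05, 0 passed after adjustment, and the median was 0.01. Over all probes tested 9.27% were higher and 7.09% lower at that threshold. Qrsl1, Gatb and Gatc encode the subunits of the amidotransferase that turns glutamate into glutamine on mitochondrial transfer RNA, after Ears2 has charged it with glutamate. Qrsl1 read 9.06 and 9.28 in wild type against 10.06 and 9.90 in the knockout, a difference of 0.81 ± 0.13 (SE, limma adjusted p 0.126). Gatb read 7.39 and 7.77 against 7.12 and 7.18, a difference of -0.43 ± 0.16 that missed the unadjusted threshold (limma p 0.0513). Gatc, with overlapping groups, read 6.64 and 7.22 against 6.74 and 7.11 (-0.01 ± 0.25). Ppa2, the mitochondrial pyrophosphatase that removes a product of charging, differed by -0.62 ± 0.18, and Dtd2, an editing deacylase, by -0.43 ± 0.16.

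**Figure D5:**
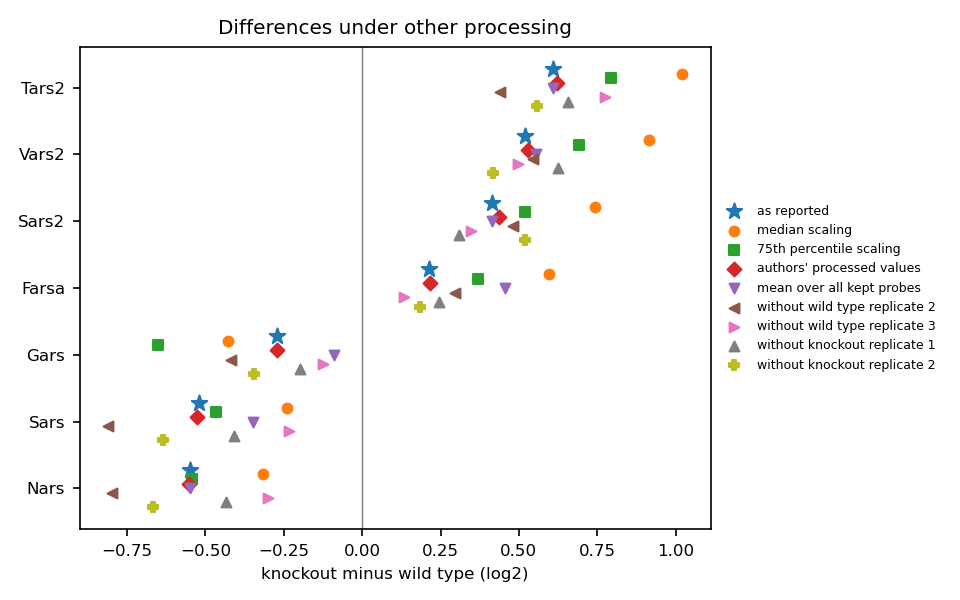
Knockout minus wild type (log2) of 7 synthetase genes as reported (star) and under other scalings, the authors' processed values, the mean over kept probes and with 1 array left out. Every point of Tars2, Vars2, Sars2 and Farsa lies above 0 and every point of Gars, Sars and Nars below it. The size differs between scalings and between the arrays left out. These 7 do not stand for all tested synthetase genes. They are among the 13 that never changed sign over the alternatives, while 17 others, such as Eprs and Tars, did so somewhere.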

How the data were processed

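Illumina bead arrays, 1 per tumour, were made from 100 ng of total RNA with 14 h of in vitro transcription, per the labels' protocols. The deposited unnormalized table holds linear probe intensity, without detection p-values; array medians ran from 55.31 to 68.27. The authors' processed table holds the same intensity after quantile normalization, judged from its values. The array software is not stated in the labels. Its 46632 probe rows were each paired with 1 of 46643 unnormalized rows through their 4 values (tolerance 0.001 log2), and 11 rows were left out. Symbols came from the platform annotation: 29976 probes had 1 symbol, 10 several and 16646 none. All 32 synthetase symbols matched the RefSeq gene table.

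Values were paired and summarised with pandas 2.3.3, scipy 1.17.1 and numpy 2.4.6 under Python 3.11.15. R 4.3.3 with limma 3.58.1 corrected background on the deposited values (normexp, offset 50), quantile normalized them, took log2 and kept 27979 probes with a mean above the 40th percentile (6.07; lowest value 5.65, so dim probes are compressed). lmFit and eBayes tested knockout minus wild type, two-sided, with Benjamini-Hochberg adjustment (2 residual and 2.49 prior degrees of freedom). The steps were tested on simulated data. The labels give 2 mice per genotype, and 4 arrays limit the precision. No slide or scan date was available to test. Members and lists were chosen with earlier results of these data known. Each member could be named, with full values for the 10 of smallest p in each direction and their partners for the same amino acid. Up to 4 genes of smallest p from each other list were planned. More were named from the stress response, partner and charging lists. One promoter sequence is not reported here. The grouping by complex is textbook knowledge. Alternatives changed scaling, background, filter, prior, probe choice and arrays.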

Additional observations from a re-analysis of the deposited data

How the results depend on the processing

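No paired analysis was possible because the groups share only replicate number 2. Over 325 refits of the 30 tested synthetase genes under the alternatives, 302 kept their direction and side of the adjusted threshold, 23 changed sign and 0 passed after adjustment; 13 genes never changed sign. The count of probes called went from 0 to 4 with a trended, robust prior and from 0 to 1669 with 1 array left out (1669 without wild-type replicate 2, 875 without replicate 3), and the count of synthetase genes under an unadjusted p of 0.05 from 1 to 9. The cytosolic median, the mitochondrial median and the per-array difference between them were 0.006, 0.443 and -0.285 under median scaling, -0.219, 0.219 and -0.285 under 75th percentile scaling, and -0.174, 0.112 and -0.261 with the filter at the 70th percentile, which tests fewer genes. With 1 array left out they ran from -0.13 to -0.027, from -0.035 to 0.073 and from -0.171 to -0.033. Without Gars and Kars the cytosolic median was -0.046.

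Signs changed under median scaling for Eprs (0.006), Mars1 (0.156), Pars2 (0.093) and Tars (0.162), and under 75th percentile scaling for Aars2 (-0.097), Lars (-0.039) and Qars (-0.04). With the mean over kept probes they changed for Ears2 (-0.035), Hars (0.01), Pars2 (0.007) and Wars2 (-0.199). Leaving out 1 array gave ranges across 0 for Aars (-0.084 to 0.003), Aars2 (-0.002 to 0.073), Ears2 (-0.071 to 0.105), Hars2 (-0.139 to 0.007), Iars (-0.177 to 0.084), Kars (-0.574 to 0.017), Lars2 (-0.064 to 0.193), Pars2 (-0.252 to 0.01), Rars2 (-0.128 to 0.448) and Vars (-0.114 to 0.303). The cause was not tested. With 1 array in a group, that array is assumed to vary like the others. Probes near the floor limit Hars, Hars2, Iars, Aars2, Nars2, Yars and Yars2.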

Other observations

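Amino acid transporter genes, which bring in the substrates of the synthetases, had mean differences on both sides of 0. Of 16 tested, 1 was higher at an unadjusted p under 0.05, 0 were lower and 0 passed after limma's adjustment, with a median of 0.04. The single gene was 6.25% of the list, beside 9.27% of all probes tested that were higher and 7.09% lower. Slc38a2, a carrier of small neutral amino acids that cells induce on starvation, read 9.77 and 9.16 in wild type against 10.05 and 10.46 in the knockout (0.79 ± 0.27, SE). Slc1a4, a carrier of alanine, serine and cysteine, read 8.88 and 9.64 against 7.68 and 8.82 (-1.01 ± 0.47), with wild-type replicate 3 highest and knockout replicate 1 lowest. Slc7a6 differed by -0.37 ± 0.14 and Slc43a1 by 0.34 ± 0.16.

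Interferon-gamma response genes were listed because the cytosolic tryptophan enzyme gene belongs to that response; that enzyme gene was not analysed here. Of 8 tested, 0 passed at an unadjusted p under 0.05 or after limma's adjustment, beside 16.4% of all probes under that unadjusted p, and the median was -0.10. Ifi47 differed by -0.35 ± 0.14, Ciita by 0.45 ± 0.18, Irgm1 by -0.65 ± 0.32 and Igtp by -0.44 ± 0.42. Igtp and Irgm1 were highest in wild-type replicate 2 (8.76 and 8.86) and lay from 7.53 to 7.96 on the other arrays.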
